A study of Mus musculus with 10 samples.

Results

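Medium spiny neurons are the projection neurons of the striatum, and the genes described here carry dopamine and adenosine signals inside them. The set comprised 9 genes chosen by name: the dopamine receptor genes Drd1 and Drd2, the adenosine receptor gene Adora2a, Ppp1r1b, Pde10a, Pde1b, Rgs9, Adcy5 and Gnal. A probe set belonged to the set where the array annotation gave it 1 of these symbols and no other. The annotation gave 8 such probe sets for 5 of the 9 genes, out of 22626 probe sets on the arrays. Pde10a had 3 of them, Rgs9 2, and Drd2, Ppp1r1b and Pde1b 1 each. Drd1, Adora2a, Adcy5 and Gnal were not analysed here.

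Brain RNA of C57BL/6 mice, an inbred laboratory strain, was measured on Affymetrix MOE430A arrays, which read each transcript with 1 or more sets of short oligonucleotide probes. There were 4 arrays of brains aged 8 weeks, 2 labelled female and 2 labelled male, and 6 of brains aged 1 week, 3 labelled female and 3 labelled male. The labels name no treatment and no mutation, do not say which parts of the brain were taken, and do not state that the numbered brains came from separate animals. The p-values below therefore measure the spread between these samples, which may be technical.

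In medium spiny neurons, dopamine acts through receptors that raise cyclic AMP in the cells of the direct pathway and through Drd2, which lowers it in the cells of the indirect pathway. Cyclic AMP activates protein kinase A, which phosphorylates DARPP-32, the product of Ppp1r1b, and turns it into an inhibitor of protein phosphatase 1. The phosphodiesterases Pde10a and Pde1b break down cyclic nucleotides and so end the signal, and Rgs9 speeds the switching off of G proteins downstream of dopamine and opioid receptors. The striatum is a small part of the brain, so these transcripts were read against the RNA of all other regions. In such tissue, fewer cells of a type and less RNA per cell cannot be told apart.

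Several properties of the arrays bear on the values. Deposited intensities had trimmed means from 254.7 to 318 at 8 weeks and from 138 to 236 at 1 week, so the arrays were quantile normalized, and a change is therefore read against the rest of the array. The X-linked transcript Xist and the Y-linked gene Eif2s3y followed the sex labels in all 4 arrays of 8 weeks. They opposed the label in 4 of the 6 arrays of 1 week, replicates 1 and 2 labelled female and replicates 2 and 3 labelled male, and replicate 3 labelled female carried both. Dim probe sets, below the 40th percentile by mean log2 level, were not tested, which left 13576, among them 6 of the 8. Levels are given below as normalized intensity, changes as log2 of 8 weeks minus 1 week ± SE on the scale log2(intensity + 24), and adjusted p-values come from limma with Benjamini-Hochberg adjustment over all 13576. Levels of different probe sets are not compared.

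RefSeq start windows on GRCm38.p6 were matched for 4 of the 5 measured genes and are shown because these genes were read together. Each is the 250 bases before the start, 5′ to 3′ on the gene's strand, and for Pde10a and Pde1b it is the most upstream of 2 and 3 listed starts. Capitals mark the motif matches described after the sequences.
Drd2, chr9:49340153-49340402, plus strand: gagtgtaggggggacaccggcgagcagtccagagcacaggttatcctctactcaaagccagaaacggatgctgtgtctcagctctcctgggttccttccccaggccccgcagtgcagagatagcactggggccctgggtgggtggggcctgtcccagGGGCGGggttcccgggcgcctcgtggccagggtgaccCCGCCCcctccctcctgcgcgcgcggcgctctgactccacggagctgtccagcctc
Pde10a, chr17:8801495-8801744, plus strand: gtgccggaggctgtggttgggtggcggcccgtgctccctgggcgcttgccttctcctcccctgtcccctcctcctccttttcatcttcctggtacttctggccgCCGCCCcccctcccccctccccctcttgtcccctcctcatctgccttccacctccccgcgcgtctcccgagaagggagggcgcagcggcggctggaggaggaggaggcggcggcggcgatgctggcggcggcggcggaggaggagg
Pde1b, chr15:103502784-103503033, plus strand: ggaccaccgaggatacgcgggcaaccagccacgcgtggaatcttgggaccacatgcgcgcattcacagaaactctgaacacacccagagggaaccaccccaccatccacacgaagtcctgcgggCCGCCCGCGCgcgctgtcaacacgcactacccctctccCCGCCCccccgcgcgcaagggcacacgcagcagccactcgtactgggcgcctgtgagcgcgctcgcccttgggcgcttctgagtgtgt
Rgs9, chr11:109298182-109298431, minus strand: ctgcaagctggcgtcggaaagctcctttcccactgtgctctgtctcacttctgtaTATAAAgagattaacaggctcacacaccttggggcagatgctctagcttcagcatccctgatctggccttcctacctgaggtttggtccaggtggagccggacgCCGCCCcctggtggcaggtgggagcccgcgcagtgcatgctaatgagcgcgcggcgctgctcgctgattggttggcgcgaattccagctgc

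The motifs searched, on both strands, were the cyclic AMP response element core TGACG, the full element TGACGTCA, the GC box GGGCGG, the TATA box TATAAA, the early growth response site GCGNGGGCG and the nerve growth factor-induced B site AAAGGTCA. The GC box stood in all 4 windows, with 2 matches each in Drd2 and Pde1b and 1 each in Pde10a and Rgs9, and in 32.7% of all 32851 windows of this length. The early growth response site was matched in Pde1b, where it overlapped a GC box, and in 4.70% of all windows. A TATAAA stood in the Rgs9 window 190 to 195 bases before the start, and in 12.4% of all windows. TGACG, TGACGTCA and AAAGGTCA were in none of the 4 windows, against 17.8%, 1.55% and 1.34% of all windows, and these letters may lie outside them. The 4 windows held 68.8% G and C in Drd2, 72.8% in Pde10a, 67.2% in Pde1b and 59.6% in Rgs9, where the median of all windows was 52.4%.

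The comparison asked how these transcripts differed between brains of 8 weeks and of 1 week. Ppp1r1b, Pde1b, Pde10a and Drd2 rose at 8 weeks, by log2 changes from 0.46 to 1.11, and the level of Rgs9 did not pass the test. Of the 6 probe sets tested, 5 rose and 0 fell, where 22.0% of all probe sets tested rose and 24.0% fell. The dimmer of the 2 tested Pde10a probe sets had a 1-week mean under the filter's lowest kept level and passed through its 8-week arrays, and of the other 5 probe sets 4 rose. The median change of the 6, that dimmer Pde10a probe set included, was 0.62, against -0.0150 over all probe sets tested. Of the other 5 the middle change was 0.59, that of the brightest Pde10a probe set. In 3 of the 6 the lowest array of 8 weeks lay above the highest array of 1 week, a pattern found in 17.1% of all probe sets. Only Ppp1r1b among the 6 passed with at least a 2-fold change, which 3.31% of all probe sets did as rises, and its change was under 2-fold in some alternatives given below.

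**Figure D1:**
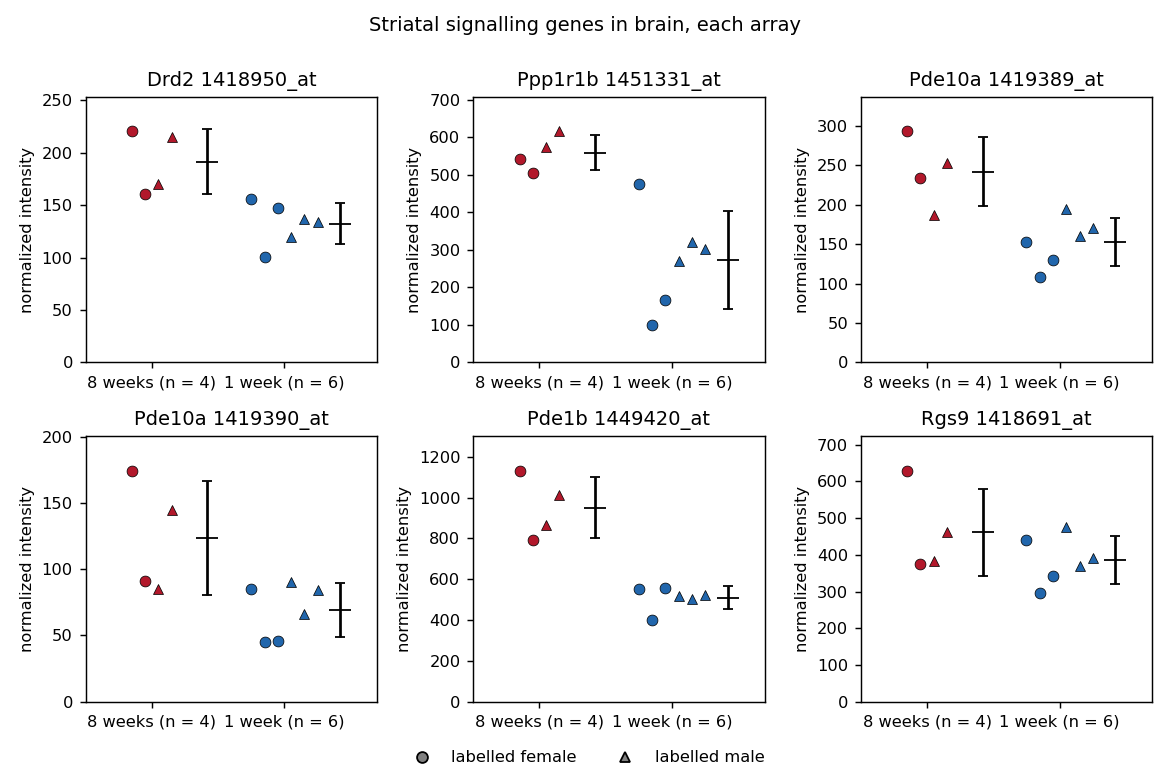
Normalized intensity of the 6 tested probe sets in each array, with 8 weeks (red, 4 arrays) left of 1 week (blue, 6 arrays); circles are arrays labelled female and triangles male, and bars show mean ± SD. The ages do not overlap for Drd2, Ppp1r1b and Pde1b, and they overlap for both Pde10a probe sets and for Rgs9.

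Drd2 encodes the dopamine receptor of indirect pathway neurons, which also serves as the autoreceptor of midbrain dopamine neurons and the receptor through which dopamine restrains prolactin release in the pituitary. Its probe set 1418950_at read 220.5 and 160.4 in replicates 1 and 2 labelled female and 170.3 and 215 in those labelled male at 8 weeks, against a lowest of 100.6, a median of 136 and a highest of 156 at 1 week. The lowest array of 8 weeks thus stood just above the highest of 1 week. Drd2 rose by 0.46 ± 0.13 (limma adjusted p = 0.0141), with means of 192 ± 30.7 at 8 weeks (SD, n = 4) and 132 ± 19.7 at 1 week (SD, n = 6). Of the probe sets tested, 13.1% rose more. The call was lost without replicate 1 labelled female at 8 weeks (0.36 ± 0.14, adjusted p = 0.0671) and without replicate 2 labelled male at 8 weeks (0.38 ± 0.14, adjusted p = 0.0631). It was also lost in a fit of age alone without the 4 arrays of 1 week that opposed their sex label, at nearly the same change (0.45 ± 0.16, adjusted p = 0.0626), and adjusted p ran from 1.20e-04 to 0.0671 over the 22 alternatives that tested it.

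Pituitary and midbrain dopamine markers were read beside Drd2, since both kinds of cell make it. Of all genes tested 21.9% rose, which is the share to set beside the small counts of markers that follow. Of 10 pituitary markers 8 had a probe set, and their summed level was 13660 in replicate 1 labelled female, 1377 in replicate 2 labelled female, 4899 in replicate 1 labelled male and 1152 in replicate 2 labelled male at 8 weeks, against 417 to 2794 at 1 week. The array of 8 weeks with the highest pituitary sum was also the one with the highest Drd2, whereas replicate 2 labelled male had nearly the same Drd2 with the lowest pituitary sum of its age. Of the 5 pituitary markers tested 2 rose. Prl, the prolactin gene, had 1509 ± 2277 at 8 weeks and 11.5 ± 6.63 at 1 week (limma adjusted p = 3.41e-04). The 1-week level of Prl lay under the filter's lowest kept level of 73.9. Prl therefore entered the test through the arrays of 8 weeks, where it was high, and its call is not read as support. Gh, the growth hormone gene, had 3211 ± 3507 at 8 weeks and 351 ± 594 at 1 week (limma adjusted p = 0.00796). The other 3 pituitary markers did not pass. Pomc changed by 0.13 ± 0.34, Ghrhr by 0.0351 ± 0.0829 and Lhb by -0.35 ± 0.18. Of 10 midbrain dopamine neuron markers 9 had a probe set, with sums of 1710 to 2188 at 8 weeks and 814 to 1026 at 1 week. Most of that difference lay in Aldh1a1, an aldehyde dehydrogenase also made by other brain cells, at 1070 ± 189 at 8 weeks and 127 ± 43.6 at 1 week. Of the 6 tested, Aldh1a1 rose by 2.89 ± 0.23 (limma adjusted p = 6.87e-06) and Th, the gene of tyrosine hydroxylase, which makes the dopamine precursor, by 0.35 ± 0.12 (adjusted p = 0.0418), to 163 ± 28.9 at 8 weeks against 123 ± 23.7 at 1 week. The other 4 did not pass, among them Nr4a2, a transcription factor of these neurons (-0.12 ± 0.16), Ddc, the gene of dopa decarboxylase (0.37 ± 0.24), and Slc6a3, the dopamine transporter gene (-0.0316 ± 0.18). Of both lists 0 members were listed at 0 in any array, and their part in the Drd2 result was not tested.

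Ppp1r1b, the gene of DARPP-32, had the largest change of the 5 genes. Its probe set 1451331_at read 541 and 505 in the arrays labelled female and 572 and 615.5 in those labelled male at 8 weeks, against a lowest of 100.5, a median of 286 and a highest of 474 at 1 week. At 8 weeks the 4 arrays lay close together, and at 1 week they were spread widely with every one below them. Ppp1r1b rose by 1.11 ± 0.30 (limma adjusted p = 0.0132), with means of 559 ± 46.8 at 8 weeks (SD, n = 4) and 272 ± 130.3 at 1 week (SD, n = 6). Only 2.47% of the probe sets tested had a larger rise. The highest array of 1 week was replicate 1 labelled female and the lowest was replicate 2 of the same label. Without that replicate 1 the change was 1.39 ± 0.12 (limma adjusted p = 3.54e-05), and without that replicate 2 it was 0.89 ± 0.24 (adjusted p = 0.0146), less than 2-fold. It was also less than 2-fold with a larger pseudocount (0.90 ± 0.23) and without the 5 arrays that do not match their sex label (0.99 ± 0.15). Adjusted p ran from 3.20e-05 to 0.0422 over all alternatives, so no alternative ended the call.

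Pde1b encodes a phosphodiesterase that calcium and calmodulin switch on. Its probe set 1449420_at read 1133 and 793 in the arrays labelled female and 867 and 1012 in those labelled male at 8 weeks, against a lowest of 402, a median of 519.8 and a highest of 555 at 1 week. All 4 arrays of 8 weeks were above all 6 of 1 week by a wide gap. Pde1b rose by 0.87 ± 0.12 (limma adjusted p = 3.07e-04), and of the 6 probe sets it had the smallest adjusted p. The means were 951 ± 151 at 8 weeks (SD, n = 4) and 509 ± 56.0 at 1 week (SD, n = 6). The call held in every alternative run, with changes from 0.74 to 1.41.

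Pde10a encodes the phosphodiesterase most strongly expressed in medium spiny neurons, which breaks down both cyclic AMP and cyclic GMP. Its brightest probe set, 1419389_at, read 293 and 234 in the arrays labelled female and 187 and 252 in those labelled male at 8 weeks, against a lowest of 108, a median of 157 and a highest of 195 at 1 week. The ages overlapped through 1 array of each, replicate 1 labelled male in both. It rose by 0.59 ± 0.12 (limma adjusted p = 0.0023), with means of 242 ± 43.9 at 8 weeks (SD, n = 4) and 153 ± 30.5 at 1 week (SD, n = 6).

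Another and dimmer probe set of Pde10a, 1419390_at, read 174 and 91.1 in the arrays labelled female and 85.4 and 144 in those labelled male at 8 weeks, against a lowest of 45.3, a median of 75.3 and a highest of 90.3 at 1 week. The fitted change was 0.65 ± 0.20 (limma adjusted p = 0.0216). Its mean of 69.4 at 1 week lay under the lowest kept level of 73.9 and its mean of 124 at 8 weeks above it, so it entered the test through the arrays where it was high, and it adds no support to the brightest probe set. That call was lost without replicate 1 labelled female at 8 weeks (0.45 ± 0.19, adjusted p = 0.0966) and without replicate 2 labelled male at 8 weeks (0.49 ± 0.21, adjusted p = 0.0962), and adjusted p ran from 1.33e-04 to 0.497 over its alternatives. Without the 4 arrays opposing their sex label the changes were 0.52 ± 0.20 and 0.70 ± 0.29 and neither Pde10a probe set passed (limma adjusted p = 0.0821 and 0.113, with 9.40e-06 to 0.391 over the alternatives of the brightest). The third probe set, 1432490_a_at, fell below the filter and was not tested, with 29.98 to 59.3 at 8 weeks and 25.9 to 78.2 at 1 week. Its groups overlapped fully.

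Rgs9 encodes a regulator of G protein signalling whose long form is the striatal one and whose short form is found in the retina, and the annotation does not say which form a probe set reads. Its brightest probe set, 1418691_at, read 629 and 374 in the arrays labelled female and 383 and 461 in those labelled male at 8 weeks, against a lowest of 297, a median of 380.3 and a highest of 475 at 1 week. Replicate 1 labelled female at 8 weeks stood above the range of 1 week, and the other arrays of 8 weeks lay within it. The change was 0.23 ± 0.16 and did not pass (limma adjusted p = 0.254). It was 0.0529 ± 0.14 without replicate 1 labelled female at 8 weeks and 0.41 ± 0.14 without replicate 2 of that label, where it passed (adjusted p = 0.0472, with 6.64e-04 to 0.884 over all alternatives). The other probe set, 1426033_at, was below the filter, with 10.9 to 52.7 at 8 weeks and 11.7 to 66.7 at 1 week, and was not tested.

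Directions were checked under other scalings, since a scaling shifts all genes. On the deposited scale all probe sets together had a median of 0.47, and the 6 probe sets changed by 0.75 to 1.63, all above that shift and all past the threshold, where 63.9% of all probe sets passed as rises. Scaled to the spike-in controls, RNAs added in fixed amount, the median was 0.19 and the 6 passed with changes from 0.45 to 1.33, where 30.6% of all probe sets passed as rises. Rgs9 was the member whose call these scalings changed, with 0.75 ± 0.16 on the deposited scale (limma adjusted p = 6.64e-04) and 0.45 ± 0.17 on the spike-in scale (adjusted p = 0.0423). The share of rises among all calls was 47.9% after quantile normalization, 93.2% on the deposited scale and 77.3% on the spike-in scale.

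**Figure D2:**
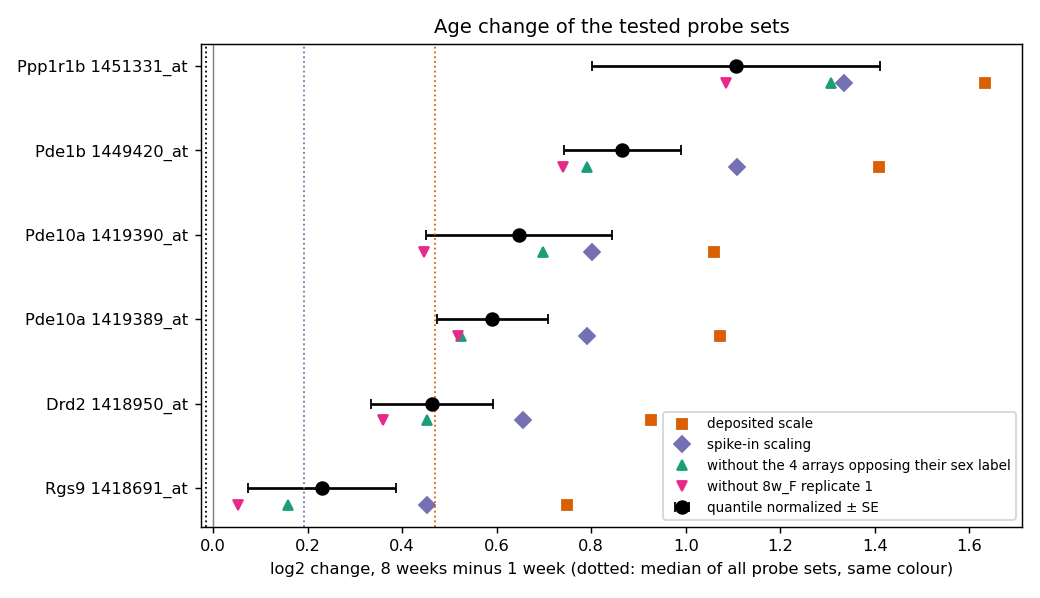
Log2 change, 8 weeks minus 1 week, of the 6 tested probe sets: black points show the quantile normalized value ± SE, and coloured symbols the value with other scaling or with arrays left out (8w_F replicate 1 is replicate 1 labelled female at 8 weeks). Dotted lines show the median of all probe sets under the scaling of the same colour, and every orange square lies right of the deposited median of 0.47.

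The number of calls differed with the arrays left out. Without replicate 1 labelled female at 8 weeks, 3 of the 6 probe sets rose, where 18.5% of all probe sets rose. Without replicate 2 labelled male at 8 weeks also 3 rose, where 18.4% of all probe sets rose. In both cases these were Ppp1r1b, Pde1b and the brightest of Pde10a. Without replicate 2 labelled female at 8 weeks 6 rose, where 18.3% of all probe sets rose. Without replicate 1 labelled male at 8 weeks 5 rose, where 19.3% of all probe sets rose. Without the 4 arrays opposing their sex label, with 2 arrays of 1 week left, 2 rose, Ppp1r1b (1.31 ± 0.18, limma adjusted p = 0.00174) and Pde1b (0.79 ± 0.15, adjusted p = 0.00704), where 15.2% of all probe sets rose. When replicate 3 labelled female at 1 week, which carried both sex transcripts, was left out as well, 1 array of 1 week remained. The fit then assumes that this array varies like those of 8 weeks, and it called the same 2, where 14.5% of all probe sets rose.

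Within an age, some arrays were the lowest or the highest for most of the 5 genes. The share of all genes lowest or highest in the same arrays was not computed, so the counts are not read as particular to the 5. Among the 6 arrays of 1 week, replicate 2 labelled female was the lowest for all 5 genes, with a mean deviation of -0.50 (log2) from the mean of its age and deviations from -1.12 in Ppp1r1b to -0.31. Among the 4 arrays of 8 weeks, replicate 1 labelled female was the highest for 4 of the 5, with a mean deviation of 0.23, and Ppp1r1b was the exception at -0.0399. Rgs9 deviated most in that array, by 0.46. Replicate 2 labelled female at 8 weeks was the lowest of its age for 4 of the 5. Ppp1r1b varied most at 1 week, from -1.12 to 0.88.

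**Figure D3:**
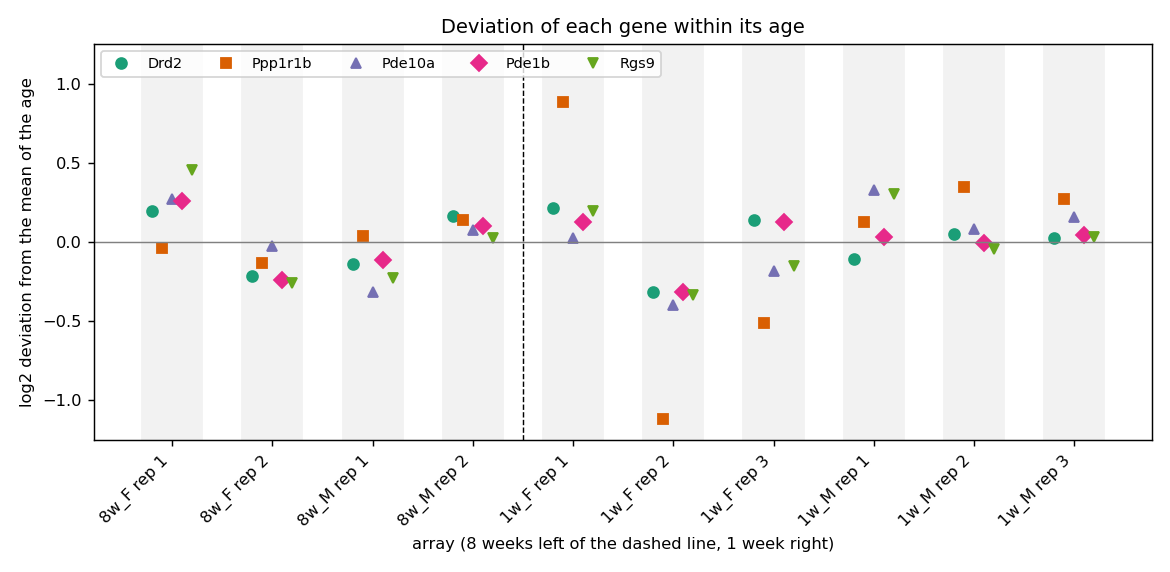
Log2 deviation of each gene's brightest probe set from its mean over the arrays of the same age, with the 4 arrays of 8 weeks left of the dashed line and the 6 of 1 week right of it (F labelled female, M labelled male). Replicate 2 labelled female at 1 week lies lowest for all 5 genes, and Ppp1r1b spans the widest range at 1 week, from -1.12 to 0.88.

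Markers of other regions and cells also differed between those arrays. At 1 week, replicate 2 labelled female had the highest summed level of oligodendrocyte markers, 11499 against 2391 to 10735 in the other arrays of its age, over 8 of 10 listed genes. It had 4114 for cortical projection neuron markers, 10 of 12 genes, where its age ran from 2698 to 5881, and 7180 for cerebellar neuron markers, 13 of 16 genes, where its age ran from 2877 to 8952. Replicates 1 of either label at 1 week had the lowest cerebellar sums, 3400 and 2877. At 8 weeks the cerebellar sums were 14391 and 13997 in the arrays labelled female and 5893 and 22191 in those labelled male, and the oligodendrocyte sums ran from 14115 to 18370. Olfactory bulb markers, 9 of 9 genes, summed to 2431 to 4772 at 8 weeks and 3220 to 3888 at 1 week, and choroid plexus markers, 5 of 8 genes, to 4057 to 9105 at 8 weeks and 5062 to 6329 at 1 week. The brightest olfactory markers were Calb2 and Reln, with means of 1263 and 1259 at 8 weeks. Ttr, with a mean of 7086 at 8 weeks, was the brightest choroid plexus marker. The highest olfactory sum and the highest cerebellar sum were in the same array, replicate 2 labelled male at 8 weeks. Of these lists 0 members were listed at 0 in any array, and their part in the deviations of the 5 genes and in the age changes was not tested.

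**Figure D4:**
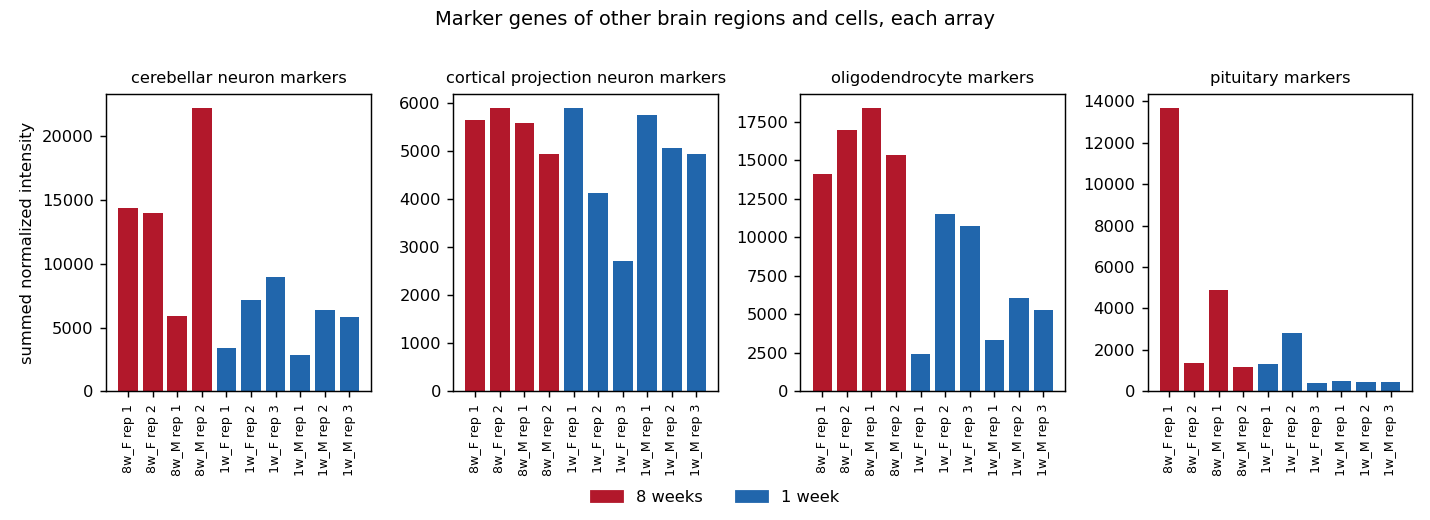
Summed normalized intensity of 4 lists of marker genes in each array, with the 4 arrays of 8 weeks (red) left of the 6 of 1 week (blue). Pituitary markers reach 13660 in replicate 1 labelled female at 8 weeks, and cerebellar markers run from 5893 to 22191 within 8 weeks.

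Ratios between the 5 genes were taken within each array, and their differences between the ages were not tested. The log2 ratio of Pde1b to Rgs9 was 0.63 higher at 8 weeks, with an SD of 0.14 over the 4 arrays of 8 weeks and 0.18 over the 6 of 1 week. The ratio of Drd2 to Pde1b fell by 0.40 on the log2 scale, with SDs of 0.0561 at 8 weeks and 0.0792 at 1 week, the smallest SDs of the 10 pairs at both ages. The ratio of Pde10a to Rgs9 was 0.36 higher, with SDs of 0.18 at 8 weeks and 0.12 at 1 week. For these pairs the arrays of the ages did not overlap, and for all others they did. Among the others were Drd2 to Pde10a, which differed by -0.13, and Ppp1r1b to Pde1b, which differed by 0.24. The share of all gene pairs without overlap was not computed, so the pairs without overlap are not read as particular to the 5 genes. Ratios that include Ppp1r1b had SDs from 0.54 to 0.60 at 1 week.

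For each gene, the 2 other genes with the nearest log2 profile over the 10 arrays were found by mean absolute difference after centring each gene on its own mean. Kcnj4, an inward rectifier potassium channel gene, lay nearest to Ppp1r1b (0.22), followed by Fam131a (0.25), and Kcnj4 was also one of the striatal genes listed below. Gria3, an AMPA receptor subunit gene, lay nearest to Pde1b (0.0995), followed by Pfkm, a phosphofructokinase gene (0.106). Map2, a dendritic microtubule protein gene, lay nearest to Rgs9 (0.0953), followed by Syt6 (0.103). Sirpa, a membrane receptor gene, lay nearest to Pde10a (0.101), followed by Lman2 (0.109). Foxj2 lay nearest to Drd2 (0.0841), followed by Sebox (0.0960). The distance was larger for Ppp1r1b than for the other genes, in which it stayed at or below 0.109.

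Among other genes listed for striatal projection neurons, more rose than fell. The gene lists here and below were chosen with earlier results of these data known, so their counts are not read as support. With single arrays left out this list had 8 to 12 rises, where 18.3% to 21.6% of all probe sets rose. Of 36 listed genes 21 were tested, of which 12 rose, 3 fell and 6 did not pass, with a median change of 0.51, where 21.9% of all 8148 genes rose, 24.0% fell and the median was -0.0198. Arpp19, a phosphoprotein regulated by cyclic AMP, rose by 1.77 ± 0.10 to 1339 ± 188 at 8 weeks, against 376 ± 54.4 at 1 week, while of its other probe sets 1422608_at rose by 0.99 ± 0.15 and 1450685_at did not pass (0.18 ± 0.0903). Itpka, an inositol trisphosphate kinase of dendritic spines, rose by 1.49 ± 0.20, and Penk, the enkephalin precursor of indirect pathway neurons, by 1.40 ± 0.16. Rasd2, the small GTPase Rhes of the striatum, rose by 1.36 ± 0.15 and Kcnj4 by 0.87 ± 0.21. Adjusted limma p-values of these 5 ran from 1.05e-06 to 0.00753, and Tac1, the substance P precursor of direct pathway neurons, did not pass (adjusted p = 0.315), with 682 ± 193 at 8 weeks and 575 ± 116 at 1 week.

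The 3 listed genes that fell included regulators close to the measured members. Ppp1r1a, the gene of inhibitor-1, which like DARPP-32 inhibits protein phosphatase 1 once phosphorylated by protein kinase A, fell by 1.17 on the log2 scale (SE 0.11) to 248 ± 42.2 at 8 weeks, against 587 ± 70.2 at 1 week. Rasgrp2, an exchange factor for the small GTPase Rap, fell by 1.10 (SE 0.10) to 182 ± 15.9 at 8 weeks, against 419 ± 44.9 at 1 week. The limma adjusted p-values were 2.42e-05 for Ppp1r1a and 1.48e-05 for Rasgrp2. The third, Arpp21, a phosphoprotein of striatal neurons regulated by cyclic AMP, gave opposite calls by probe set. Its brightest, 1419028_at, changed by -0.35 ± 0.11 (limma adjusted p = 0.0259), whereas 1424248_at rose by 1.63 ± 0.27 and 1451280_at by 1.28 ± 0.26. On the deposited scale 1419028_at changed by 0.20, below the shift of 0.47 in all probe sets, it was not called on the spike-in scale (-0.0991) or with median scaling (-0.31), and neither without replicate 2 labelled female (-0.34) or replicate 1 labelled male (-0.34) at 1 week nor without replicate 2 labelled female (-0.26) or replicate 2 labelled male (-0.32) at 8 weeks, with adjusted p from 0.00845 to 0.628 over its alternatives.

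**Figure D5:**
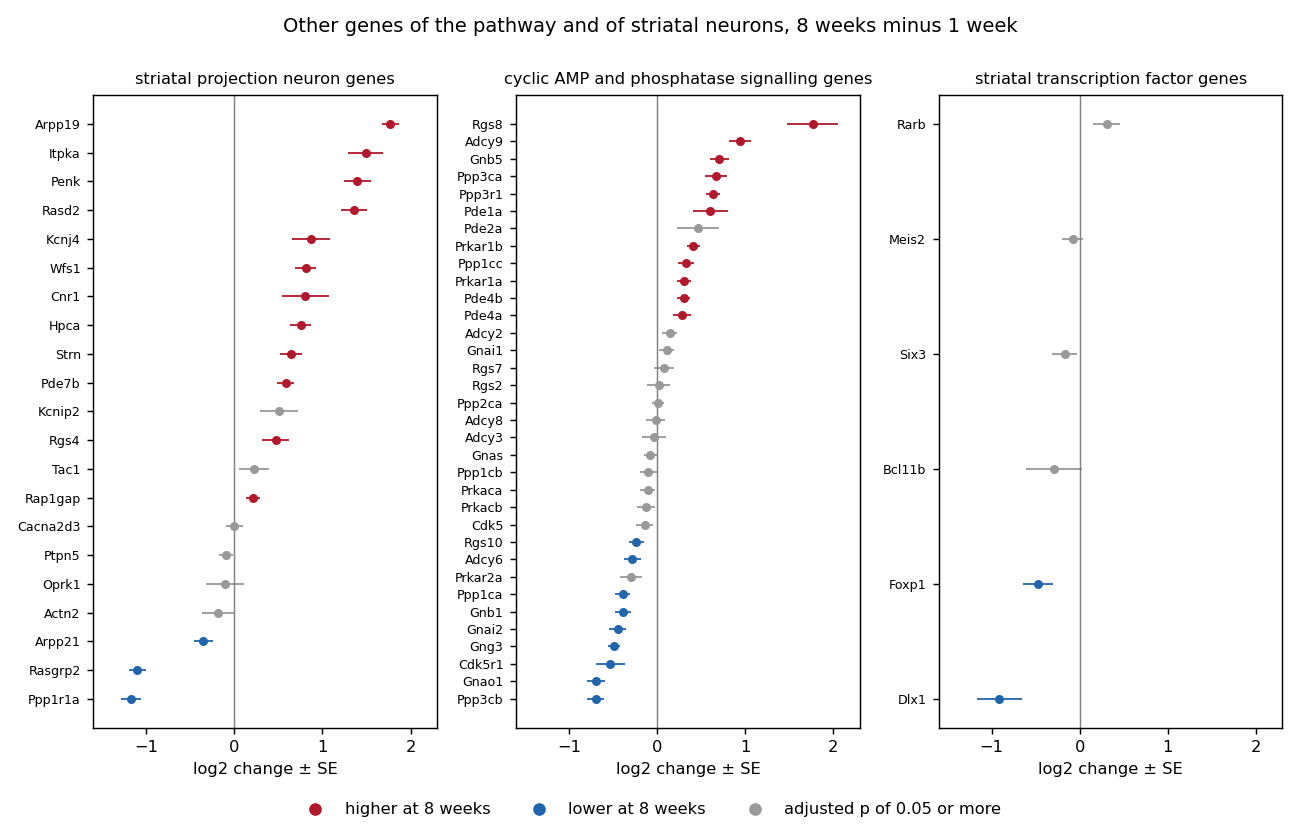
Log2 change ± SE, 8 weeks minus 1 week, of the tested genes of 3 lists, each by its brightest probe set; red genes were higher and blue genes lower at 8 weeks at a limma adjusted p under 0.05, and grey genes did not pass. The striatal projection neuron list has 12 red and 3 blue genes, and the cyclic AMP and phosphatase list is split into 11 red and 9 blue.

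Genes of cyclic AMP and phosphatase signalling that are not particular to the striatum went both ways, as did genes at large. Of 42 listed 34 were tested, of which 11 rose, 9 fell and 14 did not pass, and their median change was -0.00397, where 21.9% of all genes rose, 24.0% fell and the median was -0.0198. Rgs8, a regulator of G protein signalling prominent in Purkinje cells, rose by 1.76 ± 0.29, and its relation to the cerebellar marker sums given above was not tested. Adcy9, an adenylyl cyclase gene, rose by 0.94 ± 0.12 and Gnb5, the G protein subunit that stabilises Rgs9, by 0.71 ± 0.11. Ppp3ca and Ppp3r1, which encode a catalytic and the regulatory subunit of calcineurin, the phosphatase that acts on DARPP-32, rose by 0.67 ± 0.13 and 0.64 ± 0.0809. The limma adjusted p-values of these 5 ran from 1.38e-04 to 0.00161.

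Among the genes that fell was another catalytic subunit of calcineurin. Ppp3cb, by its brightest probe set 1427468_at, changed by -0.70 ± 0.10 (limma adjusted p = 3.08e-04), whereas its other probe set, 1433835_at, changed by 0.37 ± 0.15 and did not pass (adjusted p = 0.0676). Gnao1, a G protein alpha subunit, changed by -0.69 ± 0.0986 (limma adjusted p = 2.89e-04), and Cdk5r1, the activator of the kinase Cdk5, which also phosphorylates DARPP-32, by -0.53 ± 0.16 (adjusted p = 0.0232). On the deposited scale the 3 changed by -0.15, -0.19 and 0.0266, below the shift of 0.47 in all probe sets, and none was called. Without replicate 1 labelled female (-0.47), replicate 1 labelled male (-0.54) or replicate 2 labelled male (-0.53) at 8 weeks, Cdk5r1 was not called either. Nor was this brightest probe set called with spike-in scaling (-0.28) or without the arrays opposing their sex label (-0.49). Its adjusted p ran from 0.00112 to 0.877 over the alternatives. Among the other Cdk5r1 probe sets, 1433450_at changed by -0.61 ± 0.11 (limma adjusted p = 0.00127) and 1421124_at by -0.58 ± 0.12 (adjusted p = 0.00349). The change of 1421123_at did not pass (-0.11 ± 0.18).

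Transcription factors of striatal development were few after the filter. Of 20 listed 6 were tested, of which 0 rose, 2 fell and 4 did not pass, where 21.9% of all genes rose and 24.0% fell. Dlx1, a homeobox gene of migrating interneurons and striatal precursors, changed by -0.91 ± 0.26 (limma adjusted p = 0.0146), with 47.8 ± 23.7 at 8 weeks and 111 ± 40.8 at 1 week, and was not called without replicate 2 labelled female at 8 weeks (-0.63 ± 0.24, adjusted p = 0.0642, with 0.0043 to 0.0642 over the 17 alternatives that tested it). Its level at 8 weeks lay under the lowest kept level of 73.9, so it entered the test through the arrays of 1 week, where it was high. It was below the filter, and not tested, without replicate 1 labelled female or replicates 1 or 3 labelled male at 1 week and without the 4 arrays opposing their sex label. Foxp1, a forkhead gene of medium spiny neurons, changed by -0.47 ± 0.17 (limma adjusted p = 0.0424), with 658 ± 18.8 at 8 weeks and 944 ± 238 at 1 week. Of its other tested probe sets 1435221_at changed by -0.61 ± 0.13 (limma adjusted p = 0.00401), and the rest did not pass (-0.50 to -0.12). The brightest Foxp1 probe set was not called when any of the 4 arrays of 8 weeks was left out (-0.49 to -0.45). It was not called without replicates 1 (-0.41) or 3 (-0.47) labelled male at 1 week either. Nor was it called with median scaling (-0.43), spike-in scaling (-0.22) or no filter, nor without the 4 arrays opposing their sex label (-0.41). On the deposited scale it changed by 0.0852, below the shift of 0.47 in all probe sets, with adjusted p from 0.00576 to 0.635 over its alternatives. Without replicate 1 labelled male at 1 week, replicate 3 labelled male at 1 week or replicate 2 labelled female at 8 weeks the list had 0 falls, with Dlx1 not tested in the first 2 cases, and without replicate 1 labelled female at 1 week it had 1 rise.

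The sex labels at 8 weeks could not be compared by this test. The fit (limma, 2 arrays a label) called 0% of all probe sets, with 345 of 13576 at an unadjusted p under 0.05, and did not call Xist, although Xist read 131 and 134 in the arrays labelled male and 1676 and 1405 in those labelled female. The spread in that fit is shared with the 1-week label groups, which the sex transcripts oppose. Its count of 0 of the 6 probe sets, at either threshold, therefore says nothing about a sex difference in these genes. The measured differences, male minus female, ran from -0.24 ± 0.18 for Pde10a 1419389_at to 0.17 ± 0.47 for Ppp1r1b.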

How the data were processed

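Brain RNA of 10 samples was measured on 1 array each, and the labels gave each sample's age and sex. The authors deposited a linear intensity for each probe set, and the software and settings behind it are not given in the sources used here. Of 22690 probe sets, 64 array controls were left out. The rest were quantile normalized, a pseudocount of 24 (the 20th percentile of deposited values) was added, log2 was taken, and probe sets with a mean under the 40th percentile were left out. Of 22626 probe sets, 20380 had 1 symbol in the platform annotation, 691 several and 1555 none, and 0 symbols were changed through the RefSeq table. In gene lists the brightest singly annotated probe set stood for a gene.

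Models were fitted with limma 3.58.1 in R 4.3.3 (lmFit and eBayes), each label group of age and sex having its own coefficient, and the age contrast averaged over the sexes. P-values are two-sided with a threshold of 0.05 after Benjamini-Hochberg adjustment over all probe sets tested. The number of arrays limits the precision. The fit was tested on simulated arrays with known changes. It recovered 55.2% of log2 changes of 0.5, 83.6% of changes of 1 and 92.4% of changes of 2. A change that did not pass is therefore not shown to be absent. Alternatives were other scalings, pseudocounts, filters and models, and arrays left out.

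The 9 genes and the gene lists were chosen with earlier results of these data known. The text names every probe set of the 9 genes, up to 5 genes of each list in the direction that more took and up to 3 in the other by size of change, and the 2 nearest genes by profile. Marker lists are given by their sums and, where the text needs them, their brightest members. Tac1, Th, Slc6a3, Prl and Lhb were named in addition after their values were seen.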

Additional observations from a re-analysis of the deposited data

Results flagged for a closer look

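In 16 screens, 8 probe sets at each of the 2 ages, 1 array stood far from the others of its age. Pde1b 1449420_at read 402 in replicate 2 labelled female at 1 week, where the nearest of the other 5 arrays read 503, and that gap was 0.695 of the whole range on the log2 scale, above Dixon's critical value for 6 arrays. Chance flags about 5% of such screens. Without this array the Pde1b change was 0.79 ± 0.11 (limma adjusted p = 5.40e-04, with 8.37e-07 to 0.0213 over all alternatives) against 0.87 ± 0.12 with it.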

How the results depend on the processing

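Of the 6 probe sets, 5 rose in the analysis reported, among them the dimmer Pde10a probe set, which entered the test through its arrays of 8 weeks. The count was 3 with a filter at the 60th percentile, which left 4 of the 6 in the test, 2 in a fit of age alone without the 4 arrays opposing their sex label, 2 without these and the array with both sex transcripts, 1 with at least a 2-fold change, and 3 to 6 with single arrays left out. It was 5 or 6 under every other scaling, pseudocount, filter, model and weighting run, and 0 of the 6 fell in any. Of all probe sets tested, 24.8% rose with the filter at the 60th percentile and 18.3% to 21.6% with single arrays left out. Rgs9 turned to -0.0639 without the 5 arrays that do not match their label, where Map2 turned to -0.0191 and 1 array of 1 week was left. On the deposited scale Arpp21 turned to 0.20, Cdk5r1 to 0.0266 and Foxp1 to 0.0852, signs that come with the shift of 0.47 in all probe sets, below which all 3 stayed. Over all probe sets, 2993 rose and 3253 fell. There were 8673 rises and 629 falls on the deposited scale, 1223 falls on the spike-in scale, 1973 falls without the 4 arrays, 1975 rises and 1747 falls without the 5, and 2480 to 2936 rises and 2729 to 3126 falls with single arrays left out. Striatal projection neuron genes had 7 rises without the 5 arrays and 8 to 12 with single arrays left out. Cyclic AMP and phosphatase genes had 23 rises and 0 falls on the deposited scale, 2 falls on the spike-in scale, 6 rises and 5 falls without the 4 arrays and 5 rises and 5 falls without the 5. Striatal transcription factor genes had 2 rises and 1 fall on the deposited scale, 1 rise and 1 fall on the spike-in scale, 1 rise with array weights, 1 fall with median scaling or the 60th percentile filter, 0 falls without the 4 arrays, and 0 to 1 rises and 0 to 2 falls with single arrays left out. Beyond fewer arrays or probe sets and the shift of the median, the cause was not tested. With the replicate number as a block 5 of the 6 rose and no call of a member changed. The numbers were not used to pair the arrays in the analysis reported, and whether they do pair them was not settled. The residuals of 13 same-numbered pairs correlated from -0.0251 to 0.19 and 5 were over 0.1, although 8 of the 10 arrays correlated best with an array of their own number. With 2 arrays in each label group of 8 weeks, the residuals of a group mirror each other. Part of this check was therefore fixed by the design.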
